A study of Homo sapiens with 8 samples.

Results

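The RNA of 10 genes of the ATF4 stress response and of serine synthesis was examined: ATF4, DDIT3, TRIB3, CHAC1, ASNS, PHGDH, PSAT1, SHMT2, SESN2 and DDIT4. They were chosen by name, and each of the 10 matched 1 of the 56303 genes in the count table. The libraries came from SK-N-BE(2), an established human neuroblastoma cell line with high MYCN RNA, and all cells had been infected with a pLKO.1 lentivirus and selected with puromycin. The hairpin was either a control (sh-NC) or one directed at METTL14 (shMETTL14), a subunit of the complex that writes N6-methyladenosine (m6A) on messenger RNA. Each arm had 2 replicates, and each replicate gave an IP library, pulled down with an antibody against m6A, and an input library of the same fragmented polyadenylated RNA, so that there were 8 libraries in 4 groups of 2. The labels say neither whether the replicates were grown separately nor whether the shMETTL14 replicates carried the same shRNA, so that p-values measure the spread between these libraries only.

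ATF4 is a leucine zipper transcription factor and the main effector of the integrated stress response. In that response, kinases that sense misfolded protein, amino acid shortage, double-stranded RNA or heme shortage phosphorylate the initiation factor eIF2. General translation then falls, while ATF4 messenger RNA, which carries upstream open reading frames, is translated more. The ATF4 protein turns on genes for amino acid import and synthesis, for transfer RNA charging and for the serine pathway that feeds one-carbon metabolism, and under lasting stress it turns on DDIT3, TRIB3 and CHAC1. In neuroblastoma with amplified MYCN, the serine and glycine pathway is known to be transcribed highly. Because ATF4 is set mainly by translation, its RNA level is not a measure of its protein.

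After METTL14 knockdown these genes did not move together. SESN2, CHAC1 and DDIT4 RNA rose in the input libraries, TRIB3, ASNS, SHMT2 and ATF4 RNA fell, and DDIT3, PHGDH and PSAT1 did not pass the test. All 10 genes passed the filter on low counts, and 7 of them were called at an adjusted p-value under 0.05, 3 higher and 4 lower, where 24.0% of the 22245 genes tested were called, 11.7% higher and 12.3% lower. Of these 7 calls, only those of SESN2 and DDIT4 held with every other program, scaling and filter tried, as given by gene below. The log2 fold changes ran from -0.47 for TRIB3 to 0.72 for CHAC1, with a median of -0.06 against 0.00 over all genes tested. In 8 of the 10 genes the replicates of the arms did not overlap, as was the case for 58.5% of all genes tested. Levels are given as CPM, counts scaled to the library size with edgeR's TMM factors, and differences between arms come from the quasi-likelihood test of edgeR, adjusted by the Benjamini-Hochberg method over all genes tested, with standard errors (SE) of log2 values. In bulk libraries, fewer cells with a transcript and less of it per cell cannot be told apart.

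METTL14 itself, the target of the shRNA, stood at 51.6 and 50.9 CPM in the sh-NC inputs and at 14.3 and 15.3 CPM in the shMETTL14 inputs, or 28.9% of the control mean. Library totals ran from 32027379 to 47205265 counts. The neuroblastoma markers PHOX2A, HAND2, GATA3, MYCN, DBH, TH, CHGA and ISL1 were each at 1 CPM or more in every input, with MYCN at 4405 to 4636 CPM. Of these, 6 were higher in shMETTL14 by edgeR: TH (log2 fold change 1.03, adjusted p = 7.94e-13), DBH (0.84, adjusted p = 8.68e-04), CHGA (0.58, adjusted p = 2.13e-12), ISL1 (0.45, adjusted p = 1.02e-04), GATA3 (0.28, adjusted p = 2.71e-05) and HAND2 (0.14, adjusted p = 9.90e-04). Of 12 markers of blood, endothelial, epithelial, fibroblast, liver and Schwann cells, 7 were under 1 CPM in every input, and ALB had no count. The summed level of those 12 was 98.6 to 105 CPM in sh-NC, against 66.2 to 69.4 CPM in shMETTL14, most of it from COL1A1. The part of these marker shifts in the results below was not tested.

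**Figure D1:**
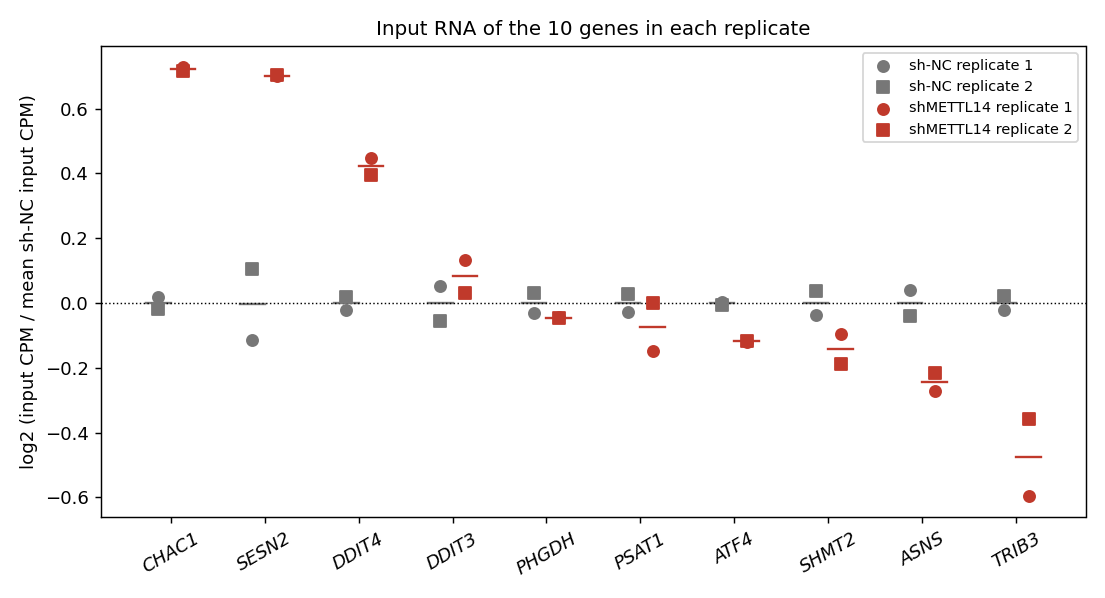
Input RNA of the 10 genes in each replicate, as the log2 of its CPM over the mean sh-NC CPM of that gene, ordered by fold change. Grey points are the sh-NC and red points the shMETTL14 replicates, and short lines are the mean of the 2 log2 values. CHAC1, SESN2 and DDIT4 of both shMETTL14 replicates lie above both control replicates, and TRIB3, ASNS, SHMT2 and ATF4 lie below them.

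ATF4 lies on the forward strand of chromosome 22, from 39519695 to 39522685 (GRCh38, as in the count table). It had 357 and 355 CPM in the sh-NC inputs, against 327 and 328 CPM in the shMETTL14 inputs. Both knockdown values were below both control values, while the replicates of an arm lay close together. The log2 fold change was -0.12 (SE 0.0326, edgeR adjusted p = 0.00898), so that the shMETTL14 mean was 92.1% of the sh-NC mean. The adjusted p was 0.0614 with no filter on low counts, 0.122 without shMETTL14 replicate 1 and 0.119 without shMETTL14 replicate 2, with a fall of about the same size each time.

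DDIT3 encodes CHOP, a partner of the C/EBP family that accompanies lasting endoplasmic reticulum stress, and lies on the reverse strand of chromosome 12, from 57516588 to 57520517. Its input level was 78.1 and 72.6 CPM in sh-NC, against 82.6 and 77.0 CPM in shMETTL14, and the arms overlapped. The log2 fold change was 0.08 (SE 0.0496, edgeR adjusted p = 0.254).

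TRIB3 encodes a pseudokinase that binds ATF4 and AKT and lies on the forward strand of chromosome 20, from 362835 to 397559. It had 14.1 and 14.5 CPM in the sh-NC inputs, against 9.49 and 11.2 CPM in the shMETTL14 inputs. The knockdown replicates were both lower and lay further apart than the controls. TRIB3 had the largest fall of the 10 genes, with a log2 fold change of -0.47 (SE 0.101, edgeR adjusted p = 0.00103). The adjusted p was 0.0812 with no filter and 0.0664 without shMETTL14 replicate 1, where the log2 fold change was -0.36.

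CHAC1 encodes an enzyme that degrades glutathione and lies on the forward strand of chromosome 15, from 40952962 to 40956519. It had the fewest counts of the 10 genes, with 54 and 53 counts in the sh-NC inputs, against 104 and 102 counts in the shMETTL14 inputs, or 1.57 and 1.53 CPM against 2.57 and 2.55 CPM. Both knockdown replicates were above both controls, and within each arm the replicates were nearly equal. The log2 fold change was 0.72 (SE 0.223, edgeR adjusted p = 0.0194), the largest rise of the 10 genes and a 1.65-fold higher mean. The call did not hold with DESeq2 (adjusted p = 0.0933), with no filter (adjusted p = 0.0582) or with any 1 replicate left out (adjusted p from 0.0636 to 0.139), while the log2 fold change stayed between 0.70 and 0.74 without each replicate in turn.

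SESN2 and DDIT4 encode stress-induced inhibitors of the growth kinase complex mTORC1. Sestrin 2 senses leucine, and DDIT4, also called REDD1, acts through the TSC complex. SESN2, on the forward strand of chromosome 1, from 28259527 to 28282491, had 11.4 and 13.3 CPM in the sh-NC inputs, against 20.1 and 20.2 CPM in the shMETTL14 inputs. The knockdown replicates stood well above the controls, which differed from one another by more than the knockdown replicates did. The log2 fold change was 0.70 (SE 0.0891, edgeR adjusted p = 1.82e-06), a 1.63-fold higher mean. DDIT4, on the forward strand of chromosome 10, from 72273920 to 72276036, had 63.1 and 64.9 CPM in sh-NC, against 87.3 and 84.2 CPM in shMETTL14. Its log2 fold change was 0.42 (SE 0.0465, edgeR adjusted p = 1.98e-07), a 1.34-fold higher mean. These 2 genes passed under every alternative run and with each replicate left out, with adjusted p-values up to 0.0253 for SESN2 and up to 0.0109 for DDIT4.

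The DDIT4 count carries a limit of overlap. RP11-442H21.2, a gene of the opposite strand, lies with all of its 847 exonic bases inside DDIT4 exons, between 72274915 and 72275980 toward the 3′ end of DDIT4, and had 58.4% to 82.0% of the DDIT4 counts in the 8 libraries. Its read density was 1.69 times that of DDIT4, and its input RNA differed by a log2 fold change of 0.45 (SE 0.0546, edgeR adjusted p = 1.06e-06), close to that of DDIT4. The strand setting of the count table is not given in the sources used here, so that reads of the pair cannot be told apart.

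ASNS encodes asparagine synthetase, which makes asparagine from aspartate and glutamine. In RefSeq's GRCh38.p14 annotation it spans positions 97851677 to 97928441 of chromosome 7, on the reverse strand; the exon list of the count table is shorter than its stated gene length for this gene and for SHMT2. ASNS had 42.0 and 39.7 CPM in the sh-NC inputs, against 33.8 and 35.2 CPM in the shMETTL14 inputs. Both knockdown replicates were lower, with a log2 fold change of -0.24 (SE 0.0599, edgeR adjusted p = 0.00366), or 84.5% of the control mean. The call was lost with no filter (adjusted p = 0.0839), without sh-NC replicate 1 (0.0530), without shMETTL14 replicate 1 (0.104) and without shMETTL14 replicate 2 (0.0846).

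The serine pathway takes a glycolytic intermediate through PHGDH, its first and rate-limiting enzyme, and the transaminase PSAT1 to serine, from which the mitochondrial enzyme SHMT2 makes glycine and a one-carbon unit. PHGDH (chromosome 1, from 119659798 to 119744215, forward strand) had 269.9 and 282 CPM in the sh-NC inputs, against 267 CPM in both shMETTL14 inputs. Its log2 fold change was -0.04 (SE 0.0348, edgeR adjusted p = 0.401). PSAT1 (chromosome 9, from 78297143 to 78330093, forward strand) had 50.8 and 52.8 CPM in sh-NC, against 46.8 and 51.8 CPM in shMETTL14, and the arms overlapped. Its log2 fold change was -0.07 (SE 0.0568, edgeR adjusted p = 0.411).

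SHMT2 spans positions 57229711 to 57234935 of chromosome 12 on the forward strand in RefSeq's GRCh38.p14 annotation. It had 89.3 and 94.0 CPM in the sh-NC inputs, against 85.8 and 80.5 CPM in the shMETTL14 inputs, so that both knockdown replicates were below both controls. The log2 fold change was -0.14 (SE 0.0465, edgeR adjusted p = 0.0292). The call was lost with DESeq2 (adjusted p = 0.0682), with no filter (0.258), without sh-NC replicate 2 (0.157), without shMETTL14 replicate 1 (0.0666) and without shMETTL14 replicate 2 (0.357). At least 427 of its listed exonic bases are shared with RP11-123K3.9 on the opposite strand, which had 5.03% to 6.61% of the SHMT2 counts in the 8 libraries.

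Levels of different genes were compared per kb of exonic length, in CPM per kb. In sh-NC inputs the order was ATF4 (142 CPM per kb), DDIT3 (59.5), PHGDH (49.0), DDIT4 (31.1), PSAT1 (23.7), SHMT2 (18.9), ASNS (9.18), TRIB3 (4.17), SESN2 (3.59) and CHAC1 (0.754), and the replicates of neighbours in this order did not overlap. ATF4 was above 98.9% of the genes tested and CHAC1 above 24.3%. The order was the same in shMETTL14 inputs except that SESN2 (5.84 ± 0.0142 CPM per kb, SD, n = 2) stood above TRIB3 (3.01 ± 0.348, SD, n = 2). In sh-NC inputs TRIB3 had been the higher of the pair, with 4.17 ± 0.0850 against 3.59 ± 0.385 CPM per kb (SD, n = 2).

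**Figure D2:**
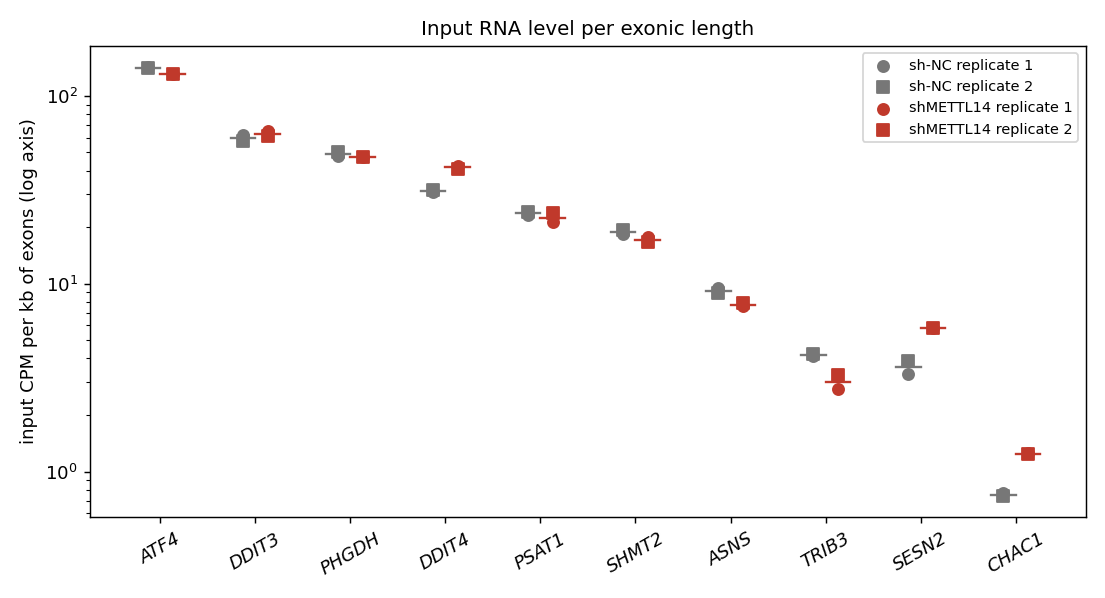
Input level of the 10 genes in CPM per kb of exons, on a log axis, ordered by the sh-NC mean. Points are replicates and short lines are arm means (grey sh-NC, red shMETTL14); the levels span from 0.754 CPM per kb for CHAC1 to 142 for ATF4 in sh-NC, and SESN2 and TRIB3 change places between the arms.

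The m6A content relative to the average gene was read as IP over input, the ratio of a gene's CPM in the IP and in the input library of a replicate. The scaling removes any loss of m6A that is proportionally equal across genes, and counts of whole genes give no position. In sh-NC, the IP was higher than the input for DDIT3, CHAC1 and ATF4 and lower for the other 7 genes, and all 10 passed the test, where 58.9% of the 22953 genes tested were called (29.1% higher and 29.8% lower). In shMETTL14, DDIT3 and ATF4 were called higher and 6 genes lower, with CHAC1 and TRIB3 not called, against 58.0% of all genes tested (28.9% higher and 29.1% lower).

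DDIT3 had the highest ratio, 1.69 and 1.94 in the sh-NC replicates and 1.72 and 1.69 in the shMETTL14 replicates. Its log2 IP over input was 0.86 in sh-NC (SE 0.0488, edgeR adjusted p = 3.68e-21), above 90.9% of the genes tested, and 0.77 in shMETTL14 (SE 0.0484, adjusted p = 1.76e-19). DDIT3 is also the shortest of the 10 genes, with 1266 exonic bases. ATF4 had ratios of 1.16 and 1.21 in sh-NC, against 1.18 and 1.15 in shMETTL14, so that the arms overlapped. Its log2 IP over input was 0.24 (SE 0.0365, edgeR adjusted p = 1.30e-07) and 0.22 (SE 0.0367, adjusted p = 9.04e-07).

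ASNS stood at the other end, with ratios of 0.390 and 0.403 in sh-NC, against 0.466 and 0.443 in shMETTL14. Its log2 IP over input was -1.33 in sh-NC (SE 0.0715, edgeR adjusted p = 3.53e-22), above only 6.57% of the genes tested, and -1.14 in shMETTL14 (SE 0.0735, adjusted p = 4.84e-19). The serine pathway genes were also lower in the IP in both arms. PHGDH had ratios of 0.656 and 0.649 in sh-NC, against 0.613 and 0.635 in shMETTL14, with a log2 value of -0.62 and -0.68. SHMT2 had ratios of 0.703 and 0.625 in sh-NC, against 0.606 and 0.688 in shMETTL14, with a log2 value of -0.59 and -0.63. PSAT1 had ratios of 0.893 and 0.736 in sh-NC, against 0.819 and 0.817 in shMETTL14, with a log2 value of -0.29 in both arms. In sh-NC, PSAT1 was no longer called without sh-NC replicate 2, at a log2 value of -0.16 (edgeR adjusted p = 0.102).

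SESN2 ratios were 0.904 and 0.638 in sh-NC, against 0.680 and 0.699 in shMETTL14. The sh-NC replicates thus lay on either side of both knockdown replicates, and the control value rests on their mean: the log2 IP over input in sh-NC was -0.38 (edgeR adjusted p = 0.00153), -0.64 without sh-NC replicate 1 and -0.14 without sh-NC replicate 2 (adjusted p = 0.423). In shMETTL14 it was -0.54 (SE 0.0950, adjusted p = 2.98e-06). DDIT4 had ratios of 0.906 and 0.891 in sh-NC, against 0.852 and 0.879 in shMETTL14, with a log2 value of -0.16 (edgeR adjusted p = 0.00604) and -0.21 (adjusted p = 1.75e-04). The sh-NC call of DDIT4 was lost without sh-NC replicate 1 (adjusted p = 0.0556) and without sh-NC replicate 2 (0.0807). The overlapping gene RP11-442H21.2 had higher ratios than DDIT4, 1.20 and 1.25 in sh-NC, against 1.16 and 1.15 in shMETTL14. Since reads of the pair cannot be told apart, its ratios give no position of m6A within DDIT4. RP11-442H21.2 was looked at after the values of DDIT4 had been seen.

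TRIB3 ratios were 0.893 and 0.785 in sh-NC, against 1.01 and 0.846 in shMETTL14, and the arms overlapped. Its log2 IP over input was -0.25 in sh-NC (edgeR adjusted p = 0.0315), with an adjusted p of 0.0963 with DESeq2, 0.0687 with no filter, 0.0634 without sh-NC replicate 1 and 0.384 without sh-NC replicate 2, and it was -0.12 in shMETTL14 (adjusted p = 0.354). CHAC1 had ratios of 1.56 and 1.43 in sh-NC, against 0.886 and 1.18 in shMETTL14. Both knockdown replicates were below both controls, with IP counts of 67 and 98, against 107 and 64 in the controls. Its log2 IP over input was 0.59 in sh-NC (SE 0.236, edgeR adjusted p = 0.0290) and 0.05 in shMETTL14 (SE 0.216, adjusted p = 0.848). The sh-NC call was lost with DESeq2 (adjusted p = 0.0766), with scaling by library size only (0.0902), without sh-NC replicate 1 (0.214) and without sh-NC replicate 2 (0.0984).

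**Figure D3:**
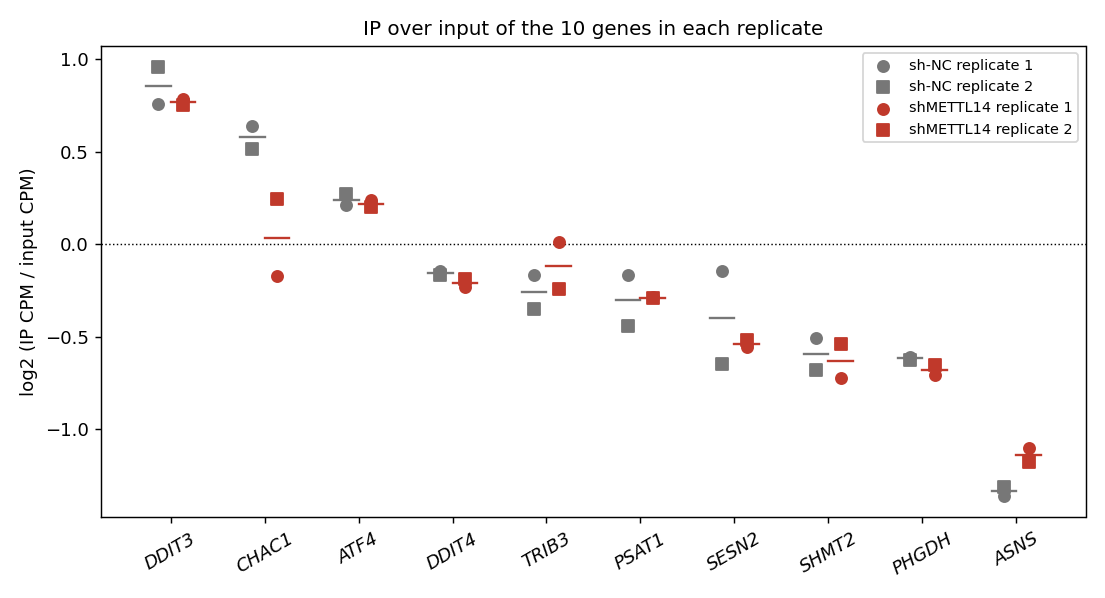
IP over input of the 10 genes in each replicate, as log2 of the ratio of IP CPM to input CPM, ordered by the sh-NC mean ratio. Points are replicates and short lines the mean of the 2 log2 values (grey sh-NC, red shMETTL14); DDIT3 and ATF4 lie above 0 and ASNS, PHGDH, SHMT2, PSAT1, SESN2 and DDIT4 below 0 in all 4 replicates.

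The difference of the log2 IP over input of shMETTL14 from that of sh-NC, an interaction term, passed for 0 of the 10 genes at an adjusted p-value under 0.05, for 0 at an unadjusted p-value under 0.05, and for 0 with DESeq2. Over all 22953 genes tested, 0.00436% were called, and 6.34% were below an unadjusted p-value of 0.05. The lowest adjusted p among the 10 was 0.794, for ASNS, whose log2 change was 0.20 (SE 0.104, unadjusted p = 0.0645). CHAC1 had the largest change, -0.53 (SE 0.320, edgeR adjusted p = 0.826), and it ran from -0.76 to -0.35 with each replicate left out. For ATF4 the change was -0.02 (SE 0.0517), for DDIT3 -0.09 (SE 0.0686), for PSAT1 0.00 (SE 0.0904) and for SESN2 -0.16 (SE 0.141). No overlap of the arms' ratios was seen for CHAC1, ASNS, PHGDH and DDIT4, or 4 of 10 genes, where 34.6% of all genes with input counts in every library did not overlap.

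Promoters were searched for the core of the C/EBP-ATF response element, TGATGNAA, at which ATF4 with a C/EBP partner is known to bind. RefSeq windows of GRCh38.p14, from 250 bases before to 50 bases after a transcription start, were at hand for 9 of the 10 genes, and the motif was looked for on both strands. It occurred in 2 of these 9 genes, ASNS and CHAC1, and in 3.62% of all 35116 windows, or 4.46% of all genes with a window. The 2 matches are shown because their genes moved in opposite directions; capitals mark the motif, and each line runs 5′ to 3′ along the strand of the gene.
ASNS, chr7:97872458-97872487, reverse strand: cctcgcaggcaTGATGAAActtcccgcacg
CHAC1, chr15:40953251-40953280, forward strand: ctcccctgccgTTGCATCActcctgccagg
ASNS had 2 windows, and only that from 97872359 to 97872658, at a start inside the RefSeq span given above, held the motif. There it runs in the sense direction from base -68 to base -61 before that start. In CHAC1 it is on the other strand, TGATGCAA, from base -209 to base -202. ASNS RNA was lower and CHAC1 RNA higher in the shMETTL14 inputs, and both calls were lost in several settings. Whether the motif bears on the direction of change was not tested. A match is a string of letters and not a measured binding site, and a window without a match says nothing of sites elsewhere.

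Other genes of the pathway were taken from lists that were written down with earlier results of these data known, and they are described by counts. Of 42 other known ATF4 targets, 40 were tested in the input comparison, of which 7 were higher and 14 lower, and 19 did not pass, with a median log2 fold change of -0.02 against 0.00 over all genes. For this list and those that follow, the shares over all genes are 11.7% higher and 12.3% lower. With no filter 3 targets were higher and 7 lower, without shMETTL14 replicate 1 the counts were 4 and 9, without shMETTL14 replicate 2 they were 2 and 7, and without sh-NC replicate 1 they were 4 and 11. The 4 with the largest called changes all fell. NUPR1, a stress-induced chromatin protein, fell by 0.64 on the log2 scale (5.16 and 5.26 CPM in sh-NC, 3.51 and 3.15 CPM in shMETTL14, edgeR adjusted p = 0.00311), with an adjusted p of 0.0511 with no filter and 0.0992 without shMETTL14 replicate 2. SLC7A1, a transporter of cationic amino acids, fell by 0.63 (74.0 and 74.6 CPM against 50.1 and 45.9 CPM, adjusted p = 1.78e-09). SLC7A11, the cystine transporter that supplies glutathione synthesis, fell by 0.58 (adjusted p = 2.41e-05). CEBPB, a C/EBP partner of ATF4, fell by 0.51 (adjusted p = 1.95e-07). Amino acid transporters, grouped after their values had been seen, accounted for 6 of the 14 that fell; 8 were tested and 0 rose. Of the 35 targets with a promoter window, 16 (45.7%) held the response element core, against 4.46% of all genes with a window. The list was made of known ATF4 targets, and this difference was not tested.

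One of those transporters was SLC7A5, which imports leucine and other large amino acids. Its input RNA had a log2 fold change of -0.47 (SE 0.0536, edgeR adjusted p = 3.97e-07), and of the 118 listed genes tested it was the 1 with a called change of IP over input, -0.47 (adjusted p = 0.00666). SLC7A5 was also the only 1 called for this change among all 22953 genes tested. That call was lost with DESeq2 (adjusted p = 1.00), without sh-NC replicate 2 (0.0788), without shMETTL14 replicate 1 (0.204) and without shMETTL14 replicate 2 (0.966), and the input call of SLC7A5 was lost with no filter (0.0507). Of the targets that rose, VEGFA, the angiogenic growth factor, had the largest rise, with a log2 fold change of 0.41 (SE 0.0346, edgeR adjusted p = 2.52e-09), and SARS1, the cytosolic seryl-tRNA synthetase, rose by 0.25 (adjusted p = 5.79e-06). No other aminoacyl-tRNA synthetase of the list was called higher. WARS1 (log2 fold change -0.16, edgeR adjusted p = 0.0111) and IARS1 (-0.14, adjusted p = 0.00583) were lower, and the rest were not called. SLC7A5, VEGFA, SARS1, WARS1 and IARS1 were named after their values had been seen.

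Among 20 other genes of serine and one-carbon metabolism, 18 were tested, and 2 were higher, 6 lower and 10 not called, with a median of -0.06. Without shMETTL14 replicate 2, 1 was higher and 3 were lower. DLD, a shared subunit of the glycine cleavage system and of mitochondrial dehydrogenases, fell by 0.62 on the log2 scale, from 147 and 147 CPM to 92.6 and 98.9 CPM (edgeR adjusted p = 7.85e-11). SLC25A32, a mitochondrial folate carrier, fell by 0.59 (adjusted p = 9.73e-08), and TYMS, thymidylate synthase, fell by 0.49 (adjusted p = 8.63e-08). PSPH, the last enzyme of serine synthesis, had a log2 fold change of -0.08 (adjusted p = 0.481), and MTHFD2, a mitochondrial folate enzyme and known ATF4 target, had one of 0.00 (adjusted p = 0.984). PSPH and MTHFD2 were named after their values had been seen. In sh-NC, 9 of the 18 had lower and 2 had higher IP than input, where the shares over all genes were 29.8% and 29.1%. This lean was not particular to these genes. Of the 21 genes of mTORC1 and amino acid sensing, 13 had lower and 2 had higher IP. The other lists did not share it: 16 lower and 16 higher of 40 other ATF4 targets, and 4 and 9 of 16 eIF2 genes. Of 19 unfolded protein response genes, 9 were lower and 8 higher, and of 13 family relatives 3 and 7.

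The eIF2 kinases, eIF2, its exchange factor eIF2B and the phosphatase subunits showed small differences: of 16 genes tested, 3 were higher, 1 was lower and 12 did not pass, with a median of -0.01. PPP1R15A, the stress-induced subunit that directs a phosphatase to eIF2, rose by 0.18 on the log2 scale (133 and 127 CPM against 145 and 148 CPM, edgeR adjusted p = 0.00175). EIF2B4, a subunit of the exchange factor, rose by 0.15 (adjusted p = 0.0217), and EIF2AK4, the kinase GCN2 that senses amino acid shortage, rose by 0.13 (adjusted p = 0.0394). The EIF2B4 call was lost with DESeq2 (adjusted p = 0.0596) and with no filter (0.0984). EIF2AK4 was lost with these (0.0949 and 0.0961) and with all 8 libraries in the fit (edgeR adjusted p = 0.0504). With a replicate left out, the log2 fold change ran from 0.12 to 0.17 for EIF2B4 and from 0.11 to 0.15 for EIF2AK4. DELE1, which relays mitochondrial stress to an eIF2 kinase, fell by 0.22 (adjusted p = 0.00994). None of these 4 calls held without shMETTL14 replicate 2, with adjusted p-values of 0.127 for PPP1R15A, 0.270 for EIF2B4, 0.191 for EIF2AK4 and 0.224 for DELE1, which was also lost with no filter (0.139). The number higher was 1 with DESeq2, with no filter, without sh-NC replicate 1 and without shMETTL14 replicate 1.

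Of 19 other genes of the unfolded protein response, 7 were higher, 4 lower and 8 not called, with a median of 0.05. HYOU1, a chaperone of the endoplasmic reticulum, rose by 0.31 on the log2 scale (568 and 559 CPM against 696 and 704 CPM, edgeR adjusted p = 3.01e-08), and MANF, a secreted protein of the same compartment, rose by 0.26 (adjusted p = 2.14e-04). DNAJB9, a cochaperone, fell by 0.31 (adjusted p = 0.0205), and HERPUD1, a component of protein degradation at the endoplasmic reticulum, fell by 0.27 (adjusted p = 0.00482). HSPA5 (BiP), the chief chaperone of this compartment, was also among the genes that rose, by 0.11 (adjusted p = 0.0110), and was named after its value had been seen. With no filter 4 were higher and 0 lower, without shMETTL14 replicate 1 the counts were again 4 and 0, and without shMETTL14 replicate 2 they were 2 and 1. HYOU1 was called in each of these settings. HERPUD1 was lost with no filter (adjusted p = 0.191) and without shMETTL14 replicate 1 (0.222), HSPA5 without shMETTL14 replicate 1 (0.104) and replicate 2 (0.180), and MANF without shMETTL14 replicate 2 (0.0688). DNAJB9 was lost with DESeq2 (0.0767), with no filter (0.210) and without sh-NC replicate 1 (0.280), shMETTL14 replicate 1 (0.227) or shMETTL14 replicate 2 (0.151).

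Around SESN2 and DDIT4, 20 of 21 genes of mTORC1 and of amino acid sensing were tested, of which 5 were higher, 2 lower and 13 not called, with a median of 0.03. SESN1 rose by 0.31 on the log2 scale (9.53 and 10.2 CPM against 12.4 and 12.0 CPM, edgeR adjusted p = 0.0267), whereas SESN3 fell by 0.60 (91.7 and 84.0 CPM against 59.0 and 57.1 CPM, adjusted p = 2.57e-09). DEPTOR, an mTOR inhibitor, fell by 0.44 (adjusted p = 1.25e-08), and TSC1, a subunit of the TSC complex, rose by 0.22 (adjusted p = 0.00140). SESN3 and DEPTOR were called in every setting. The number higher was 1 without shMETTL14 replicate 1 and 1 without shMETTL14 replicate 2, 2 with no filter, and 3 with DESeq2 and without sh-NC replicate 1. SESN1 was lost in all 5 of these settings (adjusted p from 0.0974 to 0.168), and TSC1 with no filter (0.0707) and without shMETTL14 replicate 1 (0.105).

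Among 14 family relatives of the 10 genes, 12 were tested, with 2 higher, 5 lower and 5 not called, and a median of -0.12. Along with CEBPB and SESN3, CEBPD fell by 0.54 on the log2 scale (edgeR adjusted p = 1.39e-04) and CEBPG, a known dimer partner of ATF4, by 0.45 (adjusted p = 4.68e-06). Without shMETTL14 replicate 2, 1 was higher and 3 were lower, and CEBPD had an adjusted p of 0.0565. The number higher was also 1 with DESeq2, with no filter, without sh-NC replicate 1 and without shMETTL14 replicate 1. Over the 6 lists with each gene counted once, 117 of 123 genes were tested, and 24 were higher and 28 lower. Leaving out shMETTL14 replicate 1 gave 12 higher and 19 lower, and leaving out shMETTL14 replicate 2 gave 7 higher and 13 lower.

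The 5 other genes whose log2 CPM over the 8 libraries followed that of ATF4 most closely, among 16432 genes with a mean of at least 50 counts, were EHBP1, FAM114A1, BAZ2A, TPM3 and SMC1A, with Pearson correlations from 0.998 to 0.999. All 5 had, like ATF4, a higher level in the IP than in the input of sh-NC and a negative log2 fold change of the input level, from -0.35 to -0.13. These values are a description over 8 libraries, which share the contrast of IP with input and of the arms. The shared directions follow largely from choosing the genes by this correlation. For the members themselves, the correlation with ATF4 was 0.84 for DDIT3, 0.08 for TRIB3, 0.05 for CHAC1 and between -0.90 (SESN2) and -0.67 (PSAT1) for the other 6 genes.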

How the data were processed

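The authors deposited raw counts of reads per gene for 8 MeRIP-seq libraries, without normalization. Per the labels, libraries were made with a stranded kit that adds unique molecular identifiers, and the submitters' processing notes name Trimmomatic 0.36 and GRCh38; the alignment and counting tools, whether strand was used and how the identifiers were handled are not given in the sources used here. Where PCR copies remained, reads are more numerous than molecules. The columns were matched to samples by title.

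The tests were run with edgeR 4.0.16 under R 4.3.3 (filterByExpr, TMM, glmQLFit, glmQLFTest, Benjamini-Hochberg adjustment over all genes tested, threshold 0.05). Input levels were compared over the 4 input libraries, and IP over input in 1 model of 8 libraries with 4 group means. Input CPM use the TMM factors of the input fit, and ratios use those of the 8-library fit. Standard errors are the absolute log2 change over the square root of F. Log values for correlations had a prior count of 2. IP and input of a replicate come from the same RNA; across genes, the correlation of their deviations from the group mean was 0.004 (sh-NC) and 5.70e-05 (shMETTL14). Replicate libraries differed by more than sampling noise (chi-square per gene of 2.52 to 4.32).

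The genes, lists and alternatives were chosen with earlier results of these data known. Named by rule were the 10 genes, METTL14, up to 4 called genes a list with the largest change (mean input count 50 or more), and the 5 genes most correlated with ATF4. Some other genes were named after their values had been seen, as stated where they appear. A few genes that the rule or the marker lists would name are not reported here. The results were recomputed with DESeq2 1.42.0, with RLE factors or no scaling factors, with all genes of 1 read or more, with genes of 10 or more counts in each library, with all 8 libraries in the input fit, with a replicate block, and without each replicate, which leaves 1 library in a group and assumes that it varies like the others. The fits were tested on simulated counts. Figures were drawn with matplotlib 3.10.9.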

Additional observations from a re-analysis of the deposited data

How the results depend on the processing

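SESN2 and DDIT4 in the input comparison, and DDIT3, ATF4, ASNS, PHGDH and SHMT2 in IP over input of both arms, kept their direction and call under each alternative and with each replicate left out. Of the 10 genes, 4 were lower in the input libraries, which became 0 with no filter beyond 1 read and 0 to 3 with a replicate left out. With no filter, the listed genes had 12 higher and 14 lower in place of 24 and 28, and with a replicate left out they had 7 to 21 higher and 13 to 28 lower, the fewest without shMETTL14 replicate 2. In sh-NC, 7 of the 10 genes had lower IP than input, and 3 to 7 with a replicate left out, the fewest without sh-NC replicate 2. The cause was not tested, and leaving out a replicate leaves fewer libraries.

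Log2 values that crossed 0 were all uncalled. With a replicate left out, the PSAT1 input change ran from -0.15 to 0.0015. The shMETTL14 IP over input ran from -0.24 to 0.014 for TRIB3 and from -0.17 to 0.25 for CHAC1, and was -0.066 for CHAC1 with library size only, which moved the median of all genes to -0.14 in sh-NC and -0.13 in the knockdown. The arm difference of IP over input ran from -0.068 to 0.0091 for ATF4, from -0.21 to 0.0082 for DDIT3, from -0.12 to 0.14 for PSAT1, from -0.13 to 0.047 for SHMT2, from -0.39 to 0.095 for SESN2 and from -0.0026 to 0.19 for METTL14. For PSAT1 it was also -0.0091 with no filter and -0.0020 with at least 10 counts in every library. The input change of MTHFD2, uncalled, ran from -0.030 to 0.022 with a replicate left out and was 0.0050 with library size only, 0.012 with no filter and 0.00030 with at least 10 counts in every library. The alternatives for genes other than the 10 and METTL14 were chosen after seeing the data.

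The replicate numbers did not pair the inputs of the arms (correlation of deviations -0.01 across genes). With the replicate block, 5593 genes were called in the input comparison in place of 5339, and no call of the 10 genes changed. Counts of 53 to 107 limit CHAC1.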
